A study of Mus musculus with 5 samples.

Results

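miR-221-3p and miR-222-3p are the 3p arms of neighbouring microRNA (miRNA) hairpins on the mouse X chromosome and carry the same seed, the bases with which a miRNA pairs to its targets. They were chosen by name, with earlier results of these arrays known, and are 2 of the 1265 mouse miRNA spots on each array; each has 1 spot. Because the pair was selected on these same measurements, its levels and differences are given as a description, with no test. Total RNA of 5 mouse cultures was measured on single-colour miRNA arrays after labelling with Hy5, a red fluorescent dye, with 1 array per culture, so no value below has a replicate. EB, the embryoid body, was the wild-type embryonic stem (ES) cell line V6.5 after 1 week in floating culture without leukaemia inhibitory factor (LIF). It was set against 4 ES cultures kept with LIF. V6.5 ES is the wild-type parent line of the EB, and PKM1 KI ES is named in the labels as a knock-in of PKM1, a pyruvate kinase isoform. 2TS22c and ZHBTc4 are ES lines known as Sox2-null and Oct3/4-null cells kept undifferentiated by a drug-repressible transgene of the missing factor. The labels name no drug for these cultures, and each line is a single clone or culture here.

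As background, the miR-221 and miR-222 hairpins are made from a shared primary transcript. In human cells both miRNAs are known to repress the cyclin-dependent kinase inhibitors p27 (CDKN1B) and p57 (CDKN1C) and the receptor tyrosine kinase KIT, and they are abundant in endothelial cells, vascular smooth muscle and many tumours. ES cells are instead dominated by the miR-290 to miR-295 cluster, whose members are known to repress the p21 (CDKN1A) inhibitor.

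The mature sequences are shown because the shared seed is what joins the pair, while the remaining bases are what lets an array tell its members apart. They are from RefSeq (table of build GRCm38.p6), are written 5′ to 3′, and have the seed (bases 2 to 8) in capitals.
mmu-miR-221-3p: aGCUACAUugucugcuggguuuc
mmu-miR-222-3p: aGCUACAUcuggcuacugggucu
mmu-miR-1928: aGCUACAUugccagcuc
mmu-miR-221-5p: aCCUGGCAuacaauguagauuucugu
miR-221-3p lies at chrX:19146307-19146329 and miR-222-3p at chrX:19146901-19146923, both on the minus strand. Each is 23 bases long. Their first 8 bases are identical, and 11 of 23 positions match when the sequences are laid side by side from the 5′ end without gaps. The seed GCUACAU, which pairs with AUGUAGC in a target, occurs in 3 of the 1679 mature mouse miRNA names of the reference table (0.179%). The third is miR-1928, from chr1:74206562-74206578, which shares its first 10 bases and 14 of its 17 positions with miR-221-3p, and its first 8 bases and 8 of 17 positions with miR-222-3p. miR-221-5p is the opposite arm of the miR-221 hairpin and has another seed. The hairpins are shown with only the 3p arm marked, in capitals, and 504 bases lie between the hairpins.
Mir221: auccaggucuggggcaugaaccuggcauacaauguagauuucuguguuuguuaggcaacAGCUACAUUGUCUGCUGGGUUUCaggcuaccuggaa
Mir222: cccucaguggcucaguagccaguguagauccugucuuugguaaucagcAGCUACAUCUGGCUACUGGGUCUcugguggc
The Mir221 hairpin is 95 bases long (chrX:19146294-19146388) and the Mir222 hairpin 79 (chrX:19146893-19146971).

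The arrays differed in depth and scanning. The detector gain was 43 for EB, against 46 for 2TS22c ES and 47 for the other ES arrays, and ZHBTc4 ES lay alone on a second chip, so that chip and line cannot be told apart for it. A miRNA counted as detected where its raw spot intensity exceeded the average of the array's 1664 blank spots by more than 2 of their SDs. EB had 750 detected miRNAs, against 754 on V6.5 ES, 763 on PKM1 KI ES, 507 on 2TS22c ES and 520 on ZHBTc4 ES. In such bulk RNA, fewer cells that make a miRNA and less of it per cell cannot be told apart.

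miR-221-3p was detected in every culture and gave its lowest normalised signal in EB. Its raw intensity was 96 scanner units on EB, against 241 on V6.5 ES, 184 on PKM1 KI ES, 132 on 2TS22c ES and 144 on ZHBTc4 ES. The detection limit was 40.3 units on EB and between 59.5 and 61.6 units on the ES arrays, so that the spot stood 2.38 times above it on EB, against 4.02 times on V6.5 ES, 3.09 times on PKM1 KI ES, 2.20 times on 2TS22c ES and 2.34 times on ZHBTc4 ES. The spot was brightest on V6.5 ES and dimmest on EB, while its height above the limit was alike on EB, 2TS22c ES and ZHBTc4 ES. It was also detected on all 5 arrays when the limit was set at 3 SD of the blanks or taken from the 24 negative control spots.

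**Figure D1:**
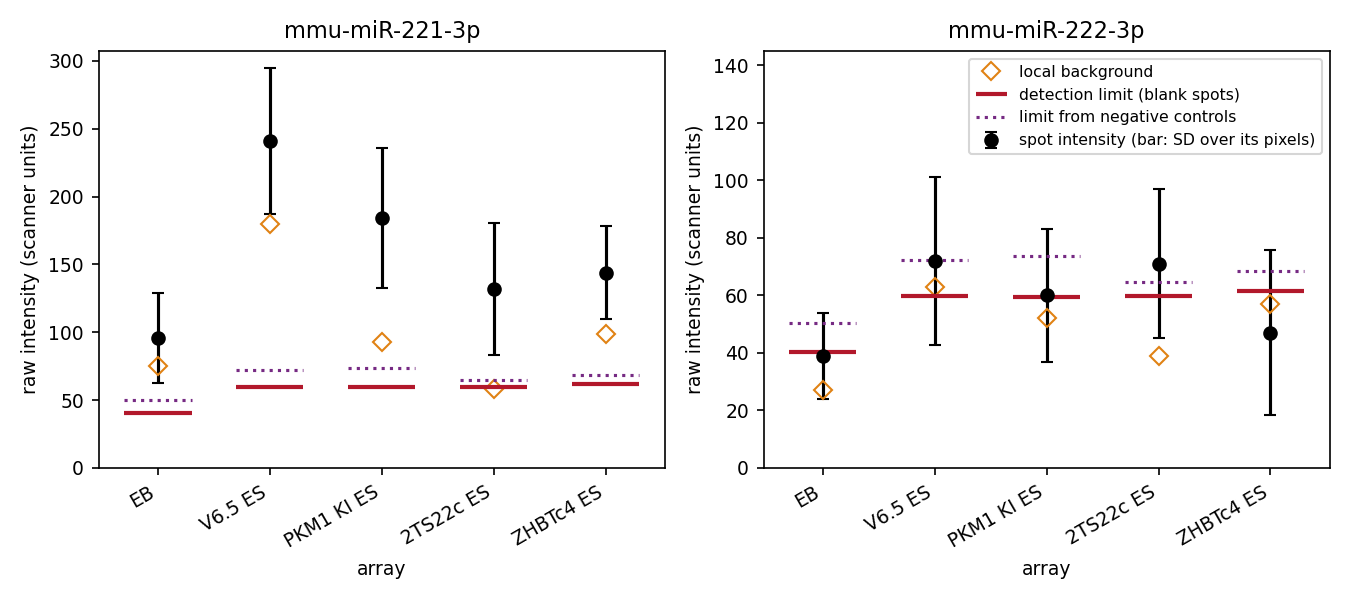
Raw intensity (scanner units, linear axis from 0) of the miR-221-3p and miR-222-3p spots on the EB and the 4 ES arrays; black points are spots with the SD over their pixels, diamonds the local background, lines the detection limits from blank and from negative control spots. The miR-221-3p spot lies above both limits on every array (96 units on EB, 241 on V6.5 ES), whereas miR-222-3p lies near them (39 units on EB, 72 on V6.5 ES).

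The brightness around the miR-221-3p spot also varied. It was 75 units on EB, against 180 on V6.5 ES, 93 on PKM1 KI ES, 58 on 2TS22c ES and 99 on ZHBTc4 ES, and so was highest where the spot was brightest; its part in the difference was not tested. Among the 5 neighbouring miRNA spots, the brightest was miR-1952, with 63 units on EB, against 88 on V6.5 ES, 99 on PKM1 KI ES, 58 on 2TS22c ES and 64 on ZHBTc4 ES. By rank, which needs no scaling, miR-221-3p stood at percentile 83.1 of all miRNAs on EB, against 89.6 on V6.5 ES, 88.2 on PKM1 KI ES, 89.9 on 2TS22c ES and 89.8 on ZHBTc4 ES. Its place among the miRNAs was thus lower on EB than on each ES array, and close among the ES arrays. Quantile normalisation, used below, sets values by this rank, so the normalised values repeat this order.

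After quantile normalisation the log2 signal of miR-221-3p was 6.90 on EB, against 7.60 on V6.5 ES, 7.41 on PKM1 KI ES, 7.65 on 2TS22c ES and 7.62 on ZHBTc4 ES. The EB value lay 0.51 below the lowest ES value. On this scale the ES arrays lay within a narrow band (mean 7.57 ± 0.11, SD over 4 lines). Scaled to the spike-in control spots instead, the ES values ran from 7.16 on 2TS22c ES to 7.81 on V6.5 ES, with 7.31 on EB. In the quantile-normalised values the log2 difference, EB minus the ES mean, was -0.68, a signal 1.60-fold lower in EB. Array by array, the difference was -0.71 against V6.5 ES (1.63-fold lower), -0.51 against PKM1 KI ES (1.43-fold lower), -0.76 against 2TS22c ES (1.69-fold lower) and -0.73 against ZHBTc4 ES (1.66-fold lower). These 4 differences share the EB array and are not independent of each other.

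Lacking replicates, the spread of the log2 difference over all miRNAs detected on both arrays served as a yardstick. That SD was 0.287 over 654 miRNAs for EB minus V6.5 ES, and 18 of them (2.75%) had a difference as low as or lower than that of miR-221-3p. Against PKM1 KI ES the SD was 0.270 over 654 miRNAs, with 12 (1.83%) as low. The spread was wider against the other ES lines, at 0.661 over 456 miRNAs for 2TS22c ES, with 50 (11.0%) as low, and 0.601 over 478 for ZHBTc4 ES, with 48 (10.0%) as low. The miR-221-3p difference lay farther out among all miRNAs against V6.5 ES and PKM1 KI ES, where the spread was narrower, although its size was much the same in each. The counts include miR-221-3p itself. Since the pair was chosen with these differences known, its place among all miRNAs is a description only.

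**Figure D2:**
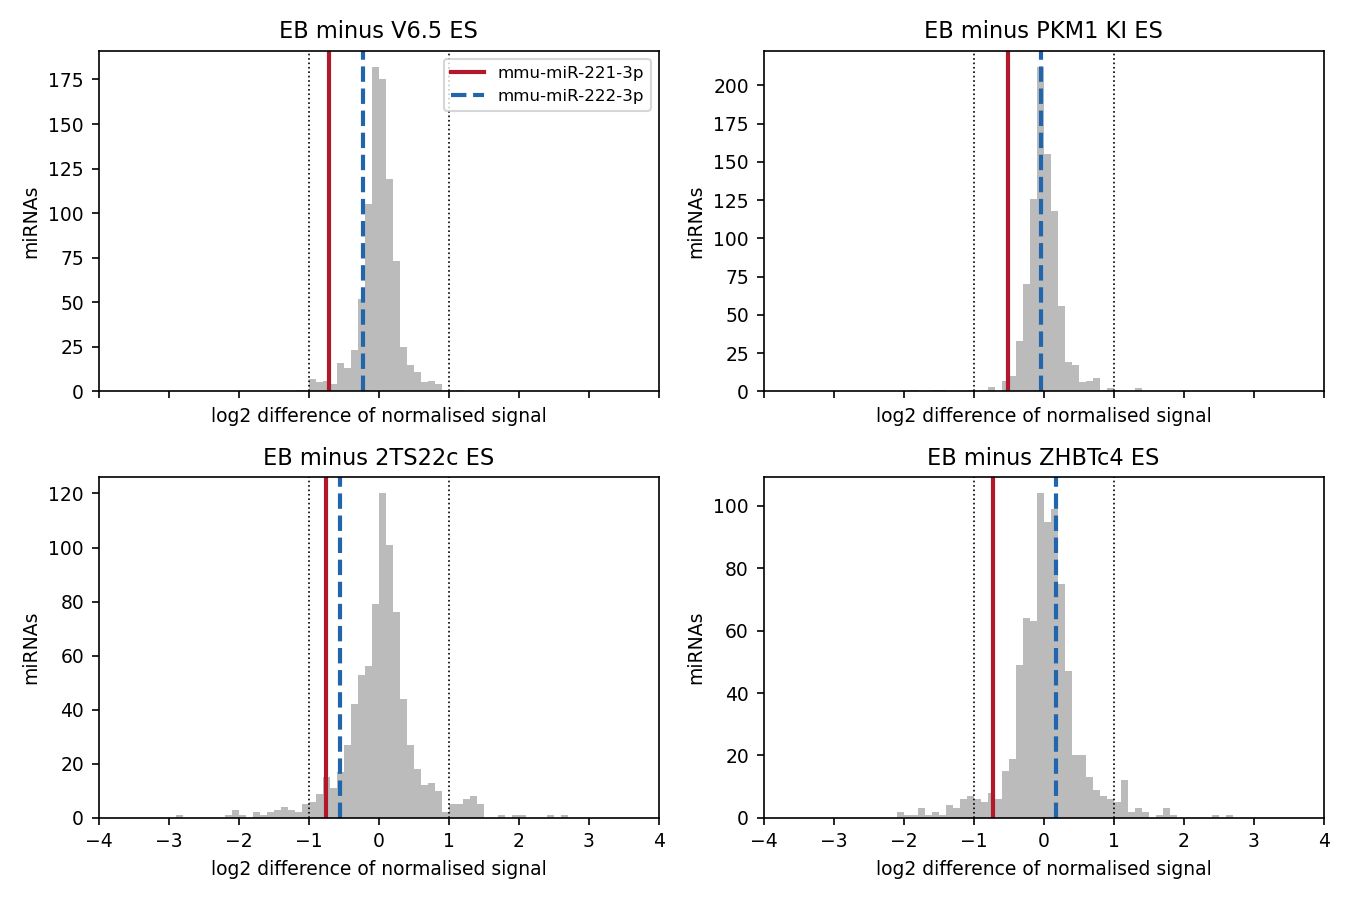
Histograms of the log2 difference of normalised signal, EB minus each ES array, over the miRNAs detected on at least 1 of the 2 arrays; solid and dashed lines mark miR-221-3p and miR-222-3p, dotted lines a 2-fold difference. miR-221-3p lies at -0.71, -0.51, -0.76 and -0.73 in the panels for V6.5, PKM1 KI, 2TS22c and ZHBTc4 ES, on the low side of each distribution and inside the 2-fold lines.

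With a threshold of 1.5-fold lower in EB, the call included miR-221-3p in 3 of the 4 comparisons. Against V6.5 ES, 27 of the 850 miRNAs detected on either array (3.18%) lay that low, and against PKM1 KI ES, where miR-221-3p did not, 9 of 859 (1.05%). Against 2TS22c ES the count was 74 of 801 (9.24%), and against ZHBTc4 ES 58 of 792 (7.32%). No member of the pair was 2-fold lower in any comparison, where the shares of all miRNAs were 0.235%, 0.466%, 3.5% and 3.91% against V6.5, PKM1 KI, 2TS22c and ZHBTc4 ES. Of the 392 miRNAs detected on all 5 arrays, 94 (24.0%), miR-221-3p among them, had their lowest signal on EB. An EB minus ES mean difference as low as that of miR-221-3p, itself included, was seen for 24. Since the pair was chosen with these differences known, nothing is read from these shares.

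The size of the miR-221-3p difference depended on how the arrays were put on a common scale. In the other 7 processings it was lower in EB in 26 of 28 comparisons, from -1.05 to 0.14. The exceptions were with scaling to the spike-in control spots, with log2 differences of 0.14 against 2TS22c ES and 0.10 against ZHBTc4 ES, beside -0.50 against V6.5 ES and -0.20 against PKM1 KI ES. That scaling moved the median difference of the miRNAs detected on both arrays, EB minus ES, by 0.21, 0.18, 0.56 and 0.54 for V6.5, PKM1 KI, 2TS22c and ZHBTc4 ES, to 0.22, 0.17, 0.51 and 0.46. Relative to the median under spike scaling, miR-221-3p lay at -0.72, -0.36, -0.36 and -0.36. Expressed per spike signal, miR-221-3p was 0.964% on EB, against 1.65% on V6.5 ES, 1.21% on PKM1 KI ES, 0.818% on 2TS22c ES and 0.865% on ZHBTc4 ES. On that scale EB stood between the V6.5 and PKM1 KI arrays on the one side and the 2TS22c and ZHBTc4 arrays on the other.

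**Figure D3:**
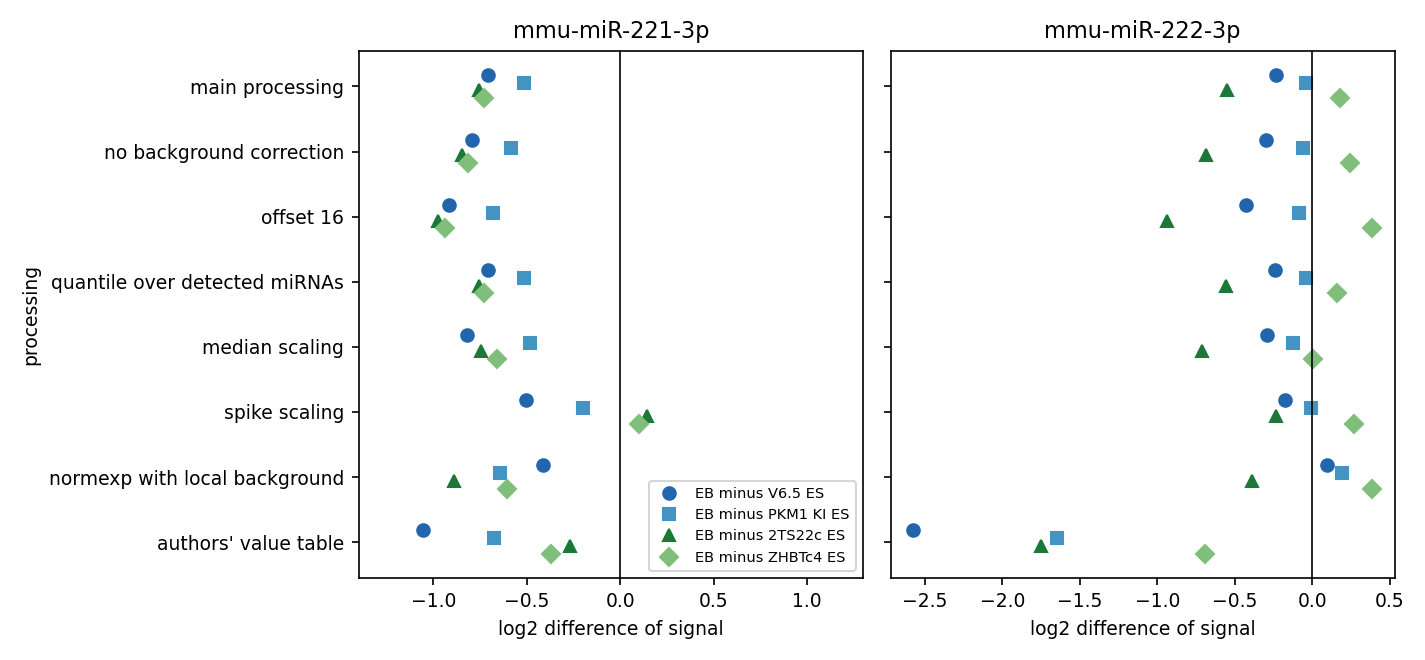
Log2 difference of signal, EB minus each ES array (marker shape and colour), for miR-221-3p and miR-222-3p under the main processing and the 7 alternatives. miR-221-3p lies below 0 except with spike scaling against 2TS22c ES (0.14) and ZHBTc4 ES (0.10); miR-222-3p lies on both sides of 0, from -2.57 to 0.39, with values that rest on undetected spots and, in the authors' table, on a filled-in lowest value for EB and ZHBTc4 ES.

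miR-222-3p was near the detection limit throughout, and EB could not be ordered firmly against the ES arrays. Its raw intensity was 39 units on EB, against 72 on V6.5 ES, 60 on PKM1 KI ES, 71 on 2TS22c ES and 47 on ZHBTc4 ES, with an SD over the spot's pixels of 14.9 units on EB, against 29.3, 23.1, 25.8 and 28.8 units on the ES arrays in the same order. It counted as detected on V6.5, PKM1 KI and 2TS22c ES and not on EB or ZHBTc4 ES. When negative control spots set the limit, it was detected on 2TS22c ES alone, since the V6.5 spot, at 72 units, was just under a limit of 72.2 units. On EB and ZHBTc4 ES its level therefore has only an upper bound.

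The normalised log2 signal of miR-222-3p was 6.10 on EB, against 6.33 on V6.5 ES, 6.14 on PKM1 KI ES, 6.65 on 2TS22c ES and 5.92 on ZHBTc4 ES. The EB and ZHBTc4 ES values come from spots under the detection limit and have no order between them, so no mean or range over the arrays is read for this miRNA. Where EB was not detected only a bound can be given. In the main processing, with the limit from blank spots, miR-222-3p was at least 1.41-fold lower in EB than in 2TS22c ES and at least 1.13-fold lower than in V6.5 ES. With the limit from negative control spots V6.5 ES did not detect it either, which leaves no bound there. With local background taken off, the log2 difference of miR-222-3p from V6.5 ES was 0.095. The log2 difference from 2TS22c ES was -0.55 in the main processing and also changed in size. It was -0.39 with local background taken off, -0.24 with spike scaling and -0.94 with an offset of 16, so the 1.41-fold bound is for the main processing only. Against PKM1 KI ES no bound above 1 could be given (log2 difference -0.04), and against ZHBTc4 ES neither array detected it. In the deposited value table the authors gave miR-222-3p no value on EB or ZHBTc4 ES, and 33.0, 17.4 and 18.6 on V6.5, PKM1 KI and 2TS22c ES. That table gave miR-221-3p a value of 97.3 on EB, against 202 on V6.5 ES, 155 on PKM1 KI ES and 117 on 2TS22c ES, with ZHBTc4 ES between the last 2.

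Among the ES lines, miR-221-3p was ordered 2TS22c, ZHBTc4, V6.5 and PKM1 KI, from high to low, in the main processing. No neighbours in that order differed beyond the yardstick. The log2 difference was -0.19 for PKM1 KI ES minus V6.5 ES, against an SD of 0.243, and 0.05 for 2TS22c ES minus V6.5 ES. It was 0.24 for 2TS22c ES minus PKM1 KI ES. EB stood below them all, 0.51 under PKM1 KI ES. With spike scaling the difference was -0.20, and EB stood above 2TS22c and ZHBTc4 ES. The ES order under that scaling was V6.5, PKM1 KI, ZHBTc4 and 2TS22c, from high to low. For miR-222-3p the ES order in the main processing was 2TS22c, V6.5, PKM1 KI and ZHBTc4. With the limit from blank spots the highest and lowest of them differed by at least 1.27-fold, with ZHBTc4 ES lower and undetected.

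The opposite arms and the remaining miRNA with the seed were at or below the limit. miR-221-5p read 32 units on EB, against 52, 45, 49 and 54 units on V6.5, PKM1 KI, 2TS22c and ZHBTc4 ES, and was detected on none of them. miR-222-5p read 38 units on EB, against 64, 58, 46 and 54 units, and was detected on V6.5 ES alone. The deposited value table differs here, with values for miR-222-5p on EB (5.86) and PKM1 KI ES (6.81) and none on the other arrays. miR-1928 read 34 units on EB, against 57, 60, 51 and 51 units, and was detected on PKM1 KI ES alone. When negative control spots, or 3 SD of the blanks, set the limit, neither miR-222-5p nor miR-1928 was detected on any array. Among the miRNAs with the seed, and on both arms of the hairpins, the miR-221-3p spot alone was detected on all 5 arrays; levels of different probes cannot be set against each other.

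Centred on its own mean over the 5 arrays, miR-221-3p had a log2 signal of -0.54 on EB, against 0.17 on V6.5 ES, -0.03 on PKM1 KI ES, 0.22 on 2TS22c ES and 0.19 on ZHBTc4 ES. The centred values of miR-222-3p were 0.10 on V6.5 ES, -0.08 on PKM1 KI ES and 0.42 on 2TS22c ES, while those on EB and ZHBTc4 ES come from undetected spots. Where both were detected, both were highest on 2TS22c ES and lowest on PKM1 KI ES. The mean profile of the pair takes in the undetected values and is background in part. Each member lay at a root mean square distance of 0.153 from the mean profile of the pair. That equality is given by construction, since 2 profiles are always equally far from their mean. The 6 miRNAs nearest to that mean profile, of the 392 detected on all 5 arrays, were miR-5118 (distance 0.0751), miR-487b-5p (0.0906), miR-5134-3p (0.113), miR-712-5p (0.115), miR-1967 (0.128) and miR-151-3p (0.128). The median distance was 0.307, above theirs because they were chosen as the nearest. All 6 lay closer to the mean profile than either member of the pair. For miR-221-3p alone, a choice made after its values were seen, the nearest were miR-1949 (0.104), miR-5097 (0.145) and miR-6366 (0.153). miR-1949, miR-5097 and miR-6366 had equal normalised values on 3 or 4 of the ES arrays, because quantile normalisation gives spots of the same rank the same value, so their profiles are steps of rank. These distances rest on 5 arrays and are a description.

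**Figure D4:**
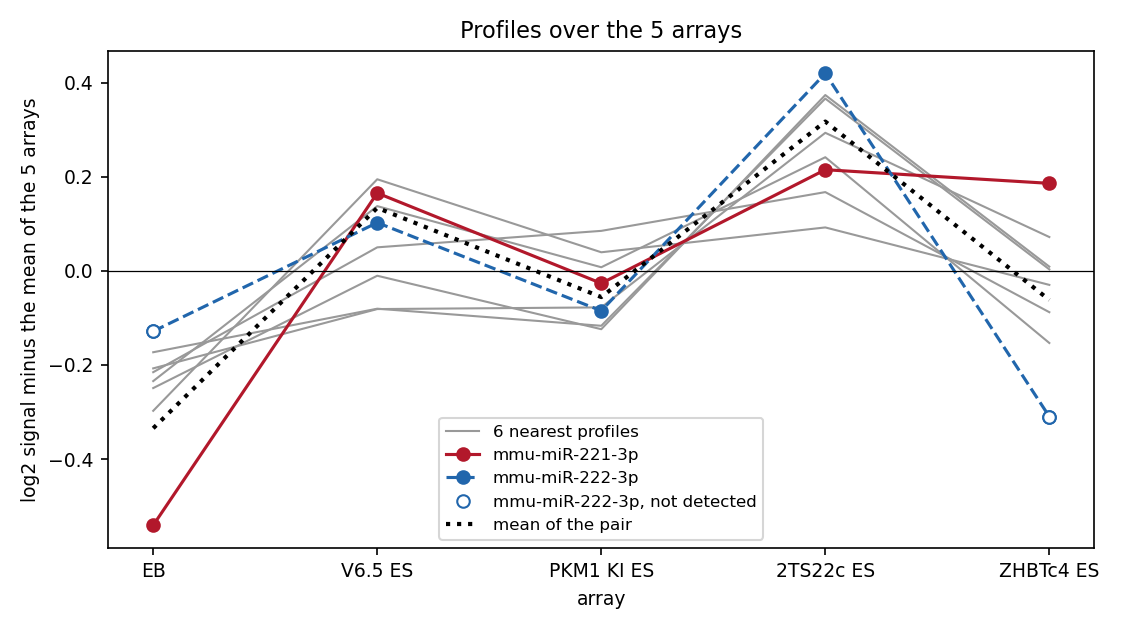
Log2 signal minus the mean of the 5 arrays, on the EB and the 4 ES arrays, for miR-221-3p, miR-222-3p, their mean (dotted) and the 6 miRNAs with the nearest profiles (grey). miR-221-3p is lowest on EB (-0.54); the open points of miR-222-3p, on EB and ZHBTc4 ES, were not detected and have no order.

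Other miRNAs reported to repress the Cip and Kip inhibitors of cyclin-dependent kinases, the group to which p27 and p57 belong, went in opposite directions within their list. Of 18 such miRNAs, all detected on both arrays, 9 were higher and 8 lower in EB than in V6.5 ES, with 1 equal (miR-152-3p). Their median log2 difference was 0.03, beside 0.01 over all 850 miRNAs. The 6 members from the miR-290 to miR-295 and miR-302 clusters were all lower (from -0.62 to -0.39), and the 6 of the miR-17 family all higher (from 0.05 to 0.51). The same held against PKM1 KI ES (from -1.83 to -0.31 and from 0.33 to 0.84), but not against the other lines. There all 6 of the miR-17 family were lower in EB, from -1.05 to -0.33 against 2TS22c ES and from -1.18 to -0.45 against ZHBTc4 ES, and the 3 miR-302 members were higher. The whole list had 12 of 18 members higher against PKM1 KI ES (median 0.12) and 7 of 18 against 2TS22c ES and ZHBTc4 ES (medians -0.44 and -0.47), beside medians over all miRNAs of -0.02, 0.05 and 0.03. With spike scaling the miR-17 family was higher in EB in all 4 comparisons. Against V6.5 ES, 3 of the 6 miR-290 and miR-302 cluster members were then higher in EB, and with local background taken off, 4 of them were higher and 4 of the miR-17 family lower. Against V6.5 ES 2 of the 18 passed 1.5-fold, 1 lower and 1 higher, beside 3.18% of all miRNAs that were 1.5-fold lower and 2.12% that were 1.5-fold higher: miR-294-3p, an abundant ES cell miRNA, had a log2 signal of 10.63 on EB against 11.25 on V6.5 ES (1.54-fold lower), and miR-181a-5p 7.11 on EB against 6.39 on V6.5 ES (1.65-fold higher). Against PKM1 KI, 2TS22c and ZHBTc4 ES, 4, 8 and 8 of the 18 were 1.5-fold lower, beside 1.05%, 9.24% and 7.32% of all miRNAs. In the same order 2, 4 and 3 were 1.5-fold higher, beside 2.68%, 9.49% and 8.84% of all miRNAs.

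Markers of cell types that the cultures could hold were read on the same arrays. All 9 ES cell miRNAs of the miR-290 to miR-295 and miR-302 clusters were lower in EB than in V6.5 ES (median -0.44, beside 0.01 over all miRNAs), a direction that turned with local background taken off (median 0.47) and with spike scaling (0.07). All 9 were also lower against PKM1 KI ES (median -0.71), whereas against 2TS22c ES and ZHBTc4 ES 5 were lower and 4 higher (medians -1.73 and -1.74). The 4 higher ones were the miR-302 members and miR-367-3p, which were at or near the limit on those arrays. Summed above the blank level, all 9 gave 86.0% of the spike signal on EB, against 80.8% on V6.5 ES, 100.5% on PKM1 KI ES, 124% on 2TS22c ES and 131% on ZHBTc4 ES. Of the 11 blood and endothelium miRNAs, 4 were detected on EB and 6 on V6.5 ES, beside 59.3% and 59.6% of all miRNAs. miR-451a and miR-144-3p, which mark red cells, and miR-126-5p, an arm of the endothelial miR-126, were undetected on every array. The other arm, miR-126-3p, was detected on EB and on V6.5, PKM1 KI and 2TS22c ES, with 51 units on EB against 65 units on V6.5 ES (log2 signal 6.32 against 6.24). Of the same list, miR-486-5p, on a spot also named for miR-3107-5p, and miR-150-5p were detected on all 5 arrays, and miR-223-3p on 3. Log2 signals on EB against V6.5 ES were 6.77 against 6.70 for miR-486-5p, 6.44 against 6.44 for miR-150-5p and 6.26 against 6.34 for miR-223-3p. The 11 together gave 2.06% of the spike signal on EB, against 1.16% to 1.59% on the ES arrays, with undetected spots included. Spike scaling also raised the median of all miRNAs detected on both arrays. That median log2 difference, EB minus ES, was 0.22, 0.17, 0.51 and 0.46 for V6.5, PKM1 KI, 2TS22c and ZHBTc4 ES. Of the 6 detected on either array, 2 were higher and 4 lower in EB than in V6.5 ES, none by 1.5-fold, and their median difference was -0.03 (0.16 with local background taken off and 0.11 with spike scaling).

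All 12 mesenchyme and fibroblast miRNAs were detected on EB. The ES arrays detected 11 (V6.5), 10 (PKM1 KI), 6 (2TS22c) and 5 (ZHBTc4) of them. The detected share of all miRNAs was 59.3% for EB, 59.6% for V6.5 ES and 60.3% for PKM1 KI ES. It was also lower for 2TS22c ES (40.1%) and ZHBTc4 ES (41.1%), where fewer miRNAs of any kind were detected. The sum of the 12 was 13.5% of the spike signal on EB, against 10.3% on V6.5 ES, 7.32% on PKM1 KI ES, 2.10% on 2TS22c ES and 2.21% on ZHBTc4 ES. On the same spike scale the median of all miRNAs was also higher on EB, and miR-221-3p was not lowest there. Against V6.5 ES 7 were higher and 4 lower, with a median of 0.06 (-0.14 with local background taken off, -0.04 with median scaling). Against PKM1 KI, 2TS22c and ZHBTc4 ES, 8, 10 and 11 of the 12 were higher in EB, with medians of 0.25, 0.39 and 0.33, beside -0.02, 0.05 and 0.03 over all miRNAs; members undetected on an ES array enter with values at its background. The only member past 1.5-fold against V6.5 ES was miR-29a-3p, a repressor of collagen mRNAs, with a log2 signal of 6.15 on EB against 7.27 on V6.5 ES (2.17-fold lower). On EB its raw intensity of 41 units was just over the limit of 40.3 units; it was not detected there with the limit at 3 SD of the blanks or from the negative control spots, which leave bounds of at least 2.09-fold and at least 1.93-fold lower. Their part in the level of miR-221-3p was not tested.

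**Figure D5:**
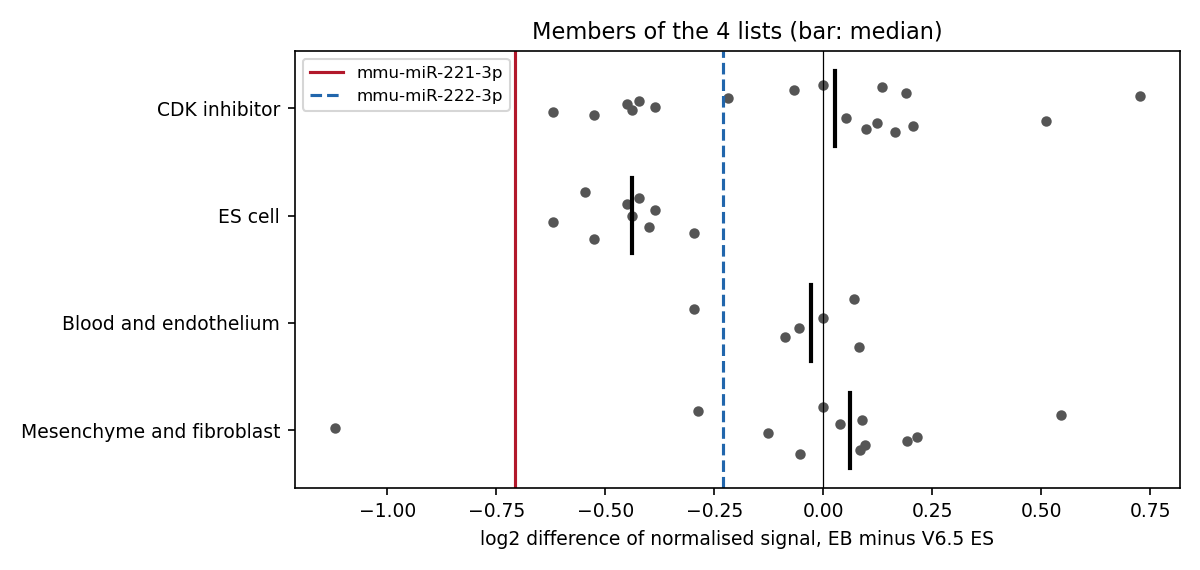
Log2 difference of normalised signal, EB minus V6.5 ES, of the members of the ES cell, cyclin-dependent kinase inhibitor, blood and endothelium, and mesenchyme and fibroblast lists (points; bars are medians); vertical lines mark miR-221-3p (-0.71) and miR-222-3p (-0.23). The ES cell members all lie below 0 (median -0.44), and the medians of the other lists are near 0.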

How the data were processed

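Each deposited scanner file holds 1 array, with spot intensity as the median brightness of its pixels and no background taken off, per the file headers. A second deposited table holds the authors' processed intensity values, whose making is not given in the sources used here; its columns ran in a straight line with the scanner values and had a median of 25. Intensities were corrected with normexp (limma 3.58.1, R 4.3.3, offset 50, local background left out), quantile-normalised over the 1265 miRNA spots and put on a log2 scale; the offset pulls dim differences towards 0. For scaling to the median or to the 16 spike-in spots, arrays were scaled before the offset was added. A miRNA without a value in the authors' table was set to its array's lowest value. Where 1 of 2 arrays detected a miRNA, the fold is a bound. The members and lists were chosen with earlier results of these data known. Named miRNAs were the pair, their opposite arms, miRNAs with the seed, list members at least 1.5-fold from V6.5 ES on EB, and the 6 nearest profiles; miR-1952, miR-152-3p, miR-367-3p, the blood and endothelium markers and the neighbours of miR-221-3p alone were named after their values were seen. Sequences were taken from RefSeq; 3 of the 4 arms matched. No test was made, with 1 array per culture; the number of arrays limits the precision.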

Additional observations from a re-analysis of the deposited data

How the results depend on the processing

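With local background taken off, EB minus V6.5 ES was -0.41 for miR-221-3p and 0.095 for miR-222-3p. With the authors' table these were -1.05 and -2.57, and miR-222-3p was -1.65, -1.75 and -0.69 against PKM1 KI, 2TS22c and ZHBTc4 ES and -1.67 against the ES mean; these only set values against a filled-in lowest value, since the authors' table has none for it on EB or ZHBTc4 ES, and say nothing of its level. With spike scaling miR-221-3p was -0.20, 0.14 and 0.10 against PKM1 KI, 2TS22c and ZHBTc4 ES and -0.11 against the ES mean, and EB ranked 3 of 5 from the lowest, against 1 in the main processing. With an offset of 16 its difference from the ES mean was -0.88. For miR-222-3p EB ranked 4 with local background and 1 with the authors' table, against 2, ranks that rest on spots undetected on EB and ZHBTc4 ES. Leaving out 1 ES array at a time, EB minus the ES mean ranged from -0.73 to -0.65 for miR-221-3p and from -0.27 to -0.03 for miR-222-3p; without ZHBTc4 ES miR-222-3p was at -0.27 and without 2TS22c ES at -0.03. Over the 7 alternatives and 4 comparisons miR-222-3p was lower in EB in 20 and higher in 8. Alternatives that keep the order of the spots within each array repeat the signs of the main processing in this count. The causes of these changes were not tested. At a threshold of 1.5-fold, 27, 9, 74 and 58 miRNAs were lower in EB than in V6.5, PKM1 KI, 2TS22c and ZHBTc4 ES, against 2, 4, 28 and 31 at 2-fold. No paired analysis was possible because each culture has 1 array. The signal over background limits miR-222-3p, which was under the limit on 2 arrays.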
